A study of Mus musculus with 12 samples.

Results

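The cells described here were the Pax8-positive, Pax2-low and Cdh16-low somatic cells of mouse gonads at embryonic day 12 (23 ± 3 tail somites). They were chosen on measured values. A cell had at least 1000 detected genes and at most 10% of its unique molecular identifiers (UMIs, which count single transcript molecules) from mitochondrial genes. It held at least 2 UMIs of Pax8, at most 1 UMI of Pax2 and Cdh16 together, at most 1 UMI of Sox9, at most 1 UMI of Foxl2, and fewer than 10 UMIs over the germ cell genes Dppa5a, Pou5f1, Ddx4 and Dazl. The rule found 1186 cells, hereafter Pax8 cells, which were 1.42% of the 83513 cells that passed the filters on genes and mitochondrial UMIs. The libraries were droplet single-cell RNA sequencing of dissociated gonads from wild-type (WT) mice, from -KTS KO mice that lack the splice variants of Wt1 without the amino acids KTS on both alleles, and from +KTS KO mice that lack the variants with KTS on both alleles. XX and XY gonads of each genotype gave 2 libraries each, 12 in all. Both are germline alleles on a mixed B6CBAF1/JRj background, so every cell of a mutant embryo carries them. Gonads were dissected from the mesonephros, and those of several -KTS KO embryos were pooled in a library. WT gave 337 of the Pax8 cells, -KTS KO 249 and +KTS KO 600.

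Wt1 encodes a zinc finger transcription factor of the early gonad and kidney, and its splice variants with and without KTS differ in their binding to DNA. Pax8 encodes a paired-box transcription factor known from the thyroid, the kidney and the Müllerian duct. Together with Pax2 it specifies the nephric lineage, and Cdh16, a kidney cadherin, marks nephric tubules. The supporting lineage of the gonad gives rise to Sertoli cells, which depend on Sox9, and to pre-granulosa cells, which express Foxl2. The rule therefore set aside cells over its limits on Pax2 and Cdh16, Sox9, Foxl2 and germ cell genes, and what it used is not a finding here. Cells of these types with counts under the limits could remain.

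The 12 libraries held 108111924 to 147968666 UMIs over all barcodes. The Pax8 cells were compared with 69635 other gonadal somatic cells, which passed the same filters, stayed under limits on endothelial, immune, globin, germ cell and tubule transcripts, and were not Pax8 cells (4415 to 8142 per library). These limits allowed low counts of each kind. They did not cover Sox9 or Foxl2, so cells over those limits of the rule stayed among the other cells. Levels are UMIs of a gene in every 1000000 UMIs (CPM), summed over the Pax8 cells or over the other cells of a library. The XY WT replicate 1 library had 13 Pax8 cells with 103827 UMIs and was left out of all comparisons between genes, so XY WT rests on 1 library with 27 cells and 342912 UMIs. Values of a genotype follow the order XX replicate 1, XX replicate 2, XY replicate 1, XY replicate 2, and WT therefore has 3 values, 2 of XX and 1 of XY replicate 2. Pax8 cells had a higher median share of mitochondrial UMIs than the other cells in 12 of 12 libraries, a higher median UMI number in 7, and a higher share of scored doublets in 8. In all, 135 Pax8 cells (11.4%) were scored as doublets, against 6.40% of the other cells. In addition, 13 Pax8 cells (10 with endothelial, 1 with immune and 2 with globin transcripts) lay outside the gonadal somatic gate. The libraries shared 6 to 46 cell barcodes per pair, and no barcode was shared between Pax8 cells of different libraries. Their part in the results below was not tested, except where a value without these cells is given. The XY +KTS KO replicate 1 library stood apart in immediate early genes, with Fos, an early response transcription factor, at 113, 247, 977 and 103 CPM in the Pax8 cells of the 4 +KTS KO libraries. Wt1 itself was at 279.6, 264 and 349.9 CPM in WT, 265, 238, 261 and 328 CPM in -KTS KO and 244, 239.6, 332 and 237 CPM in +KTS KO Pax8 cells. These counts are per gene and do not separate the splice variants, so they check no genotype label.

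Cells that met the rule were found in every library at low frequency, in some of them at a share no higher than the endothelial background given below. Of the gonadal somatic cells (Pax8 cells and other cells together), they were 1.38% (exact 95% interval 1.10 to 1.72) in XX WT replicate 1 and 3.50% (3.05 to 3.98) in XX WT replicate 2. In XY WT they were 0.180% (0.0960 to 0.308; 13 cells) in replicate 1 and 0.554% (0.365 to 0.805; 27 cells) in replicate 2. Both XY WT shares lay below both XX WT shares. The XX -KTS KO libraries held 2.07% (1.67 to 2.52; 94 cells) and 0.615% (0.413 to 0.883; 29 cells), and the XY -KTS KO libraries 1.24% (0.958 to 1.57; 66 cells) and 1.17% (0.893 to 1.502; 60 cells). The replicates of XX WT, XY WT and XX -KTS KO thus differed by more than counting error, while those of XY -KTS KO lay close together. XX +KTS KO held 2.64% (2.31 to 3.01; 221 cells) and 2.52% (2.08 to 3.02; 114 cells), and XY +KTS KO 1.83% (1.52 to 2.18; 124 cells) and 1.92% (1.62 to 2.26; 141 cells). These intervals cover counting error only.

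**Figure D1:**
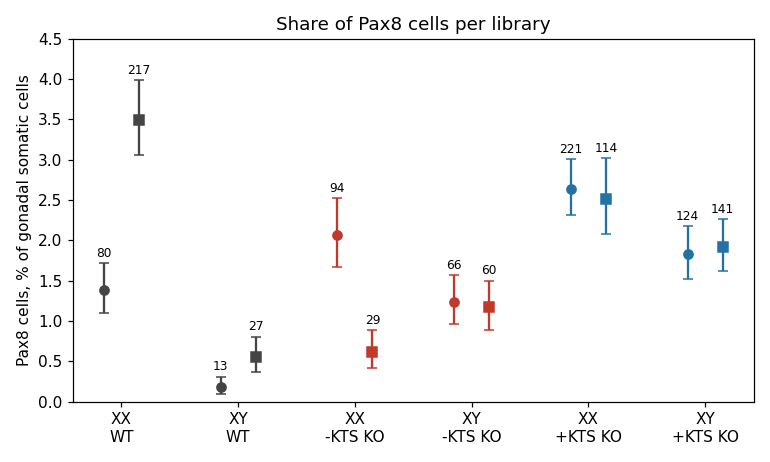
Pax8 cells as a percentage of the gonadal somatic cells in each library (y axis), by sex and genotype (x axis); circles are replicate 1 and squares replicate 2, bars are exact 95% binomial intervals and the numbers are counts of Pax8 cells. XY WT has the lowest shares (0.180% and 0.554%) and XX WT replicate 2 the highest (3.50%).

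Mean shares of the genotypes did not separate beyond the spread between libraries. The mean was 1.40% ± 1.48 (SD, n = 4) in WT, 1.27% ± 0.599 (SD, n = 4) in -KTS KO and 2.23% ± 0.412 (SD, n = 4) in +KTS KO. The difference between -KTS KO and WT was -0.132 percentage points (two-sided exact permutation test, p = 0.886, adjusted over 4 comparisons p = 0.886), and that between +KTS KO and WT was 0.824 (exact p = 0.314, adjusted p = 0.419). The difference between -KTS KO and +KTS KO was -0.955 (exact p = 0.0857, adjusted p = 0.171), and the 2 genotypes overlapped in 1 library, XX -KTS KO replicate 1. Across genotypes the 6 XY libraries averaged 1.15% ± 0.687 (SD) and the 6 XX libraries 2.12% ± 1.01 (SD), a difference of -0.972 (exact p = 0.0758, adjusted p = 0.171). When sex labels were exchanged only within a genotype, the exact p of this difference was 0.0370, unadjusted. The smallest p these designs allow is 0.0286 for 4 against 4 libraries and 0.00216 for 6 against 6. Without XX WT replicate 2 the difference between -KTS KO and WT turned to 0.566, and without XX -KTS KO replicate 2 to 0.0873.

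Depth and background bear on these shares, since a cell had to show 2 Pax8 UMIs. Pax8 was also counted at an equal depth of 5000 UMIs drawn from every cell, with the other clauses kept at full depth. In each library 194 to 1613 cells had fewer UMIs and dropped out. WT libraries then held 0.473% and 0.950% (XX) and 0.0720% and 0.215% (XY). The -KTS KO libraries then held 0.207% and 0.0919% (XX) and 0.333% and 0.267% (XY). The +KTS KO libraries held 0.731% and 0.258% (XX) and 0.755% and 0.398% (XY). At this depth both XY shares lay below both XX shares in WT, but in neither mutant. Both XY -KTS KO shares then lay above both XX -KTS KO shares. The XX -KTS KO replicate 1 library, with a median of 18793.5 UMIs per Pax8 cell, thus went from the highest -KTS KO share to the third. Endothelial cells, which should lack Pax8, had 2 or more Pax8 UMIs in 0.585% of cells (15 of 2562; exact 95% interval 0.328 to 0.964; median 18186 UMIs; 0.318% in WT, 0.922% in -KTS KO and 0.804% in +KTS KO), against 2.18% of gonadal somatic cells (median 13027 UMIs). The shares in XY WT and in XX -KTS KO replicate 2 lay within the interval of this background or below it and are not, on their own, read as Pax8 expression. The comparison is not on equal terms, since the endothelial cells were deeper and were counted without the Sox9 and Foxl2 limits. Of the XY WT Pax8 cells, 2 of 13 in replicate 1 and 12 of 27 in replicate 2 held 4 or more Pax8 UMIs. In XX -KTS KO replicate 2 this held for 3 of 29. XY WT replicate 2 and XX -KTS KO replicate 2 held over 20 Pax8 cells and enter the gene results. The other 3 -KTS KO shares lay within the wide interval of the -KTS KO endothelial cells (0.252 to 2.34, 4 of 434 cells).

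The clauses of the rule weighed unequally on the groups. Of 1652 cells with at least 2 Pax8 UMIs, 1186 (71.8%) met the other clauses, 238 had more than 1 Sox9 UMI, 179 more than 1 Foxl2 UMI, 75 reached the germ cell limit and 26 had more than 1 UMI of Pax2 and Cdh16. A cell could fail several clauses. In XY WT 14 of 30 cells in replicate 1 and 57 of 91 in replicate 2 exceeded the Sox9 limit, and in XY +KTS KO replicate 1 67 of 225 exceeded the Foxl2 limit. No -KTS KO cell with 2 Pax8 UMIs exceeded the Foxl2 limit. The number of XY WT Pax8 cells therefore reads the cells that remained after Sertoli-type cells were set aside, and sex and this removal cannot be told apart there. At the limits, 734 Pax8 cells (61.9%) held exactly 2 Pax8 UMIs, 283 held 3 and 169 held 4 or more, and 2369 cells just outside held 1. Of cells outside through Pax2 and Cdh16 alone, 7 with 2 or 3 such UMIs had Gata4 at 104 CPM and Wnt4 at 750.0 CPM, close to the Pax8 cells (Gata4 87.4 and Wnt4 717 CPM in those with none), while 6 with 4 or more had Epcam at 863 CPM, Cldn7 at 603 CPM and no Gata4 UMI. Epcam and Cldn7 are epithelial junction genes of the nephric duct, and Gata4 is a transcription factor that marks gonadal somatic cells.

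The Pax8 cells carried gonadal somatic markers in all 3 genotypes, but the name supporting-like did not hold for all of them. After thinning, at least 1 UMI of 8 gonadal somatic markers (Gata4, Wt1, Nr5a1, Lhx9, Emx2, Cbx2, Gata6, Zfpm2) was found in 97.4% of 1159 Pax8 cells, in 97.1% of the other cells and in 44.1% of endothelial cells. At least 3 UMIs of the 8, a limit chosen after the first share was seen, were found in 78.3% of Pax8 cells, 82.0% of the other cells and 21.9% of endothelial cells. In -KTS KO that share was 59.3% in Pax8 cells (49.2 to 70% by library), 79.6% in the other cells and 19.1% in endothelial cells. In cells over the Pax2 and Cdh16 limit the summed level of the list was 329 to 1622 CPM, against 612 to 1286 CPM in Pax8 cells. These ranges overlap, but few such cells were found in most libraries. The 1622 CPM came from 1 cell, in XY WT replicate 2. The 329 CPM came from 77 cells of XY +KTS KO replicate 2, against 1018 CPM in its Pax8 cells. In XX -KTS KO replicate 1 the level was 986 CPM in 27 such cells, against 612 CPM in its Pax8 cells. At least 2 UMIs of 10 tubule and duct markers outside the rule were found in 2.502% of Pax8 cells and in 5.05% of the other cells. Runx1 or Wnt6, which mark pre-supporting cells, had at least 1 UMI in 76.0% of WT Pax8 cells (72.7 to 85.2% by library), in 92.2% of +KTS KO Pax8 cells (83.9 to 96.5%) and in 3.25% of -KTS KO Pax8 cells (0.0 to 4.76%). Among the other cells the same share was 64.9% in WT, 69.2% in +KTS KO and 22.3% in -KTS KO, and among endothelial cells 12.9%, 16.5% and 3.13%. The whole list of 8 pre-supporting genes, which also holds Wnt4, Rspo1 and Nr0b1, summed to 1268 to 1407 CPM in -KTS KO Pax8 cells. It summed to 1049 to 1230 CPM in the other -KTS KO cells and to 2539 to 3602 CPM in WT Pax8 cells. Wnt4 made up most of the sum in the -KTS KO Pax8 cells, at 910 to 989 CPM by number of Pax8 UMIs. In other -KTS KO cells with 0 Pax8 UMIs it was at 268 CPM. Without Wnt4 the sum was lower in the Pax8 cells than in the other cells of each -KTS KO library. Since Runx1 and Wnt6 were at background in the -KTS KO Pax8 cells while other genes of the list were not, the name supporting-like is not used here. Pre-granulosa genes remained in XX WT Pax8 cells, with Fst, whose levels are given below, making up most of their sum. The 5 outside the rule summed to 738 and 645 CPM there, against 669 and 622 CPM in the other cells. In XY WT replicate 2 the sum was 131 against 28.3 CPM. It was 7.44 to 34.3 against 42.9 to 50.2 CPM in -KTS KO and 76.7 to 316 against 43.6 to 335 CPM in +KTS KO.

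The Pax8 cells held more transcripts of a small group of genes than the other gonadal somatic cells of the same libraries. The cells had been chosen on measured values, so these ratios are a description without a test. Ratios are log2((CPM in Pax8 cells + 5)/(CPM in other cells + 5)). Only Pax8 itself was at least 2-fold higher in each of 11 libraries, at 110 to 303 CPM against 0.892 to 8.57 CPM. Under a looser rule added after the values were seen (a mean of 2-fold or more and the same direction in 11 of 11 libraries), 20 genes were higher, 0.329% of the 6071 genes at 20 CPM or more, and 34 were lower, 0.56% of them. Plac8, which encodes a small cysteine-rich protein, followed Pax8 (chromosome 2, 24420560 to 24475599 in GRCm38) with a mean log2 ratio of 2.35 ± 0.97 (SD, n = 11). It stood at 195, 333 and 78.7 CPM in WT Pax8 cells against 40.5, 70.7 and 8.74 CPM in the other cells, at 159, 259, 247 and 205 against 19.1, 13.04, 17.1 and 16.5 CPM in -KTS KO, and at 108, 160.5, 221 and 89.3 against 48.1, 50.3, 56.3 and 45.3 CPM in +KTS KO. Plac8 (chromosome 5, 100553725 to 100572245) was higher in the Pax8 cells of each of the 11 libraries, with mean log2 ratios of 3.36 in -KTS KO, 2.30 in WT and 1.37 in +KTS KO.

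Wnt4, a Wnt ligand of the early ovary and kidney (chromosome 4, 137277489 to 137299726), was among the 20, with a mean log2 ratio of 1.45 ± 0.62 (SD, n = 11). It stood at 923, 837 and 534 CPM against 402, 438 and 71.7 CPM in WT, at 954, 861, 911 and 955 against 407, 199, 297 and 221 CPM in -KTS KO, and at 657, 498, 612 and 459 against 331, 221, 309 and 240.1 CPM in +KTS KO. The ratio was largest in XY WT, where the other cells had little Wnt4. C1qtnf12, a secreted C1q-related protein (chromosome 4, 155962318 to 155966629), averaged 1.68 ± 0.72, Igfbp6, a binding protein for insulin-like growth factors (chromosome 15, 102144362 to 102149511), 1.61 ± 1.07, and Enpp2, which makes lysophosphatidic acid outside the cell, 1.53 ± 0.65 (SD, n = 11). Greb1, a gene known for its response to estrogen, averaged 1.51 ± 0.42 and the long noncoding RNA Rmst 1.40 ± 0.66. The guidance ligand Sema3c (1.19), its receptor parts Nrp1 (1.01) and Plxna2 (1.08), the cell adhesion molecule Ncam1 (1.13) and the nuclear receptor Nr0b1 (1.16) were also among the 20. The others were Sorl1, Egfl6, Pltp, Abca1, Tspan13, Cecr2 and Cmbl, with means of 1.01 to 1.28. Just outside the group lay Sparcl1 (0.98), Igfbp5 (0.97), Nr1d1 (0.96) and the imprinted RNA H19 (0.96).

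The genes that were lower in Pax8 cells included several developmental transcription factors. Tcf21, a helix-loop-helix factor of mesenchymal cells (chromosome 10, 22817281 to 22820174), and Hoxd9, a homeobox factor (chromosome 2, 74697727 to 74700208), were at least 2-fold lower in each of 11 libraries. Tcf21 was at 50.7, 22.9 and 2.92 CPM in WT Pax8 cells against 152, 75.4 and 271 CPM in the other cells, and its mean log2 ratio was -2.15 ± 1.09 (SD, n = 11). Hoxd9 averaged -2.07 ± 0.50. The membrane protein Tm4sf5 (-2.33), the atrial-type myosin light chain Myl7 (-1.80), the creatine kinase Ckb (-1.78), the guanylate cyclase subunit Gucy1a1 (-1.76), the matrix proteoglycan Dcn (-1.67) and the LIM homeobox factor Lhx9 (-1.67) completed the 8 lowest means. Lhx9 was at 69.6, 94.9, 80.5 and 39.3 CPM in -KTS KO Pax8 cells against 275, 351, 337 and 346 CPM in the other cells, without overlap. Mitosis and S phase genes were lower as a list, with a median log2 ratio of -0.82 over 14 genes against -0.00029 over all genes at 20 CPM, and 5 of the 14 had a mean at least 2-fold lower, against 74 of 6071 genes at 20 CPM. This did not hold in every genotype, since the summed level of the list in the XX -KTS KO libraries was 1040.2 and 1199.7 CPM in Pax8 cells against 999.6 and 993.7 CPM in the other cells. Top2a, the DNA topoisomerase of dividing cells, was at 20.1, 52.4 and 43.7 CPM in WT Pax8 cells against 129.9, 142 and 201 CPM in the other cells, but at 172, 229, 67.7 and 52.4 against 138, 124, 116 and 119 CPM in -KTS KO. In both XX -KTS KO libraries Top2a was thus higher in the Pax8 cells than in the other cells.

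**Figure D2:**
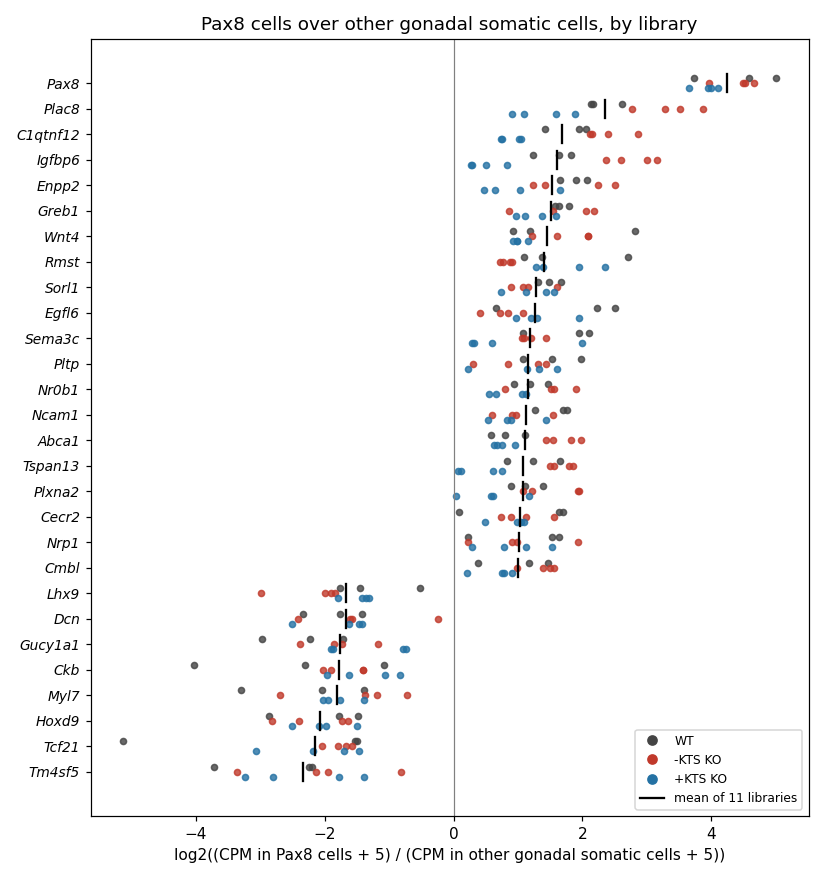
Log2 ratio of the level in Pax8 cells over that in other gonadal somatic cells (x axis, both with 5 CPM added) for the 20 genes with a mean at least 2-fold higher and a higher level in each of 11 libraries, and the 8 with the lowest mean among those lower in each (y axis); each point is 1 of 11 libraries, coloured by genotype, and the black bar is the mean. Pax8 lies far to the right because the rule used it, Plac8 follows at a mean of 2.35, and the -KTS KO libraries lie to the right of the +KTS KO libraries for Plac8, C1qtnf12 and Igfbp6.

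The genes past a 2-fold limit were counted within each genotype as well. At least 2-fold in every library of a genotype, 20 genes were higher and 63 lower in WT (3 libraries), 45 higher and 61 lower in -KTS KO (4 libraries), and 4 higher and 14 lower in +KTS KO (4 libraries). These counts are not on equal terms, since the number of libraries and of cells differs. Of 14 mitosis and S phase genes, 6 (Mki67, Top2a, Ccnb2, Cdk1, Ccna2 and Rrm2) were among those lower in WT, 0 among those lower in -KTS KO and 1 (Rrm2) among those lower in +KTS KO, beside 1.10%, 1.10% and 0.246% of all genes at 20 CPM in the other cells. The count understates +KTS KO, where the mean log2 ratio of Top2a was -1.82 against -1.95 in WT and that of Ccna2 -1.66 against -1.79. In +KTS KO the other 5 missed the limit in 1 library, XY replicate 1 (-0.77 to -0.44). In -KTS KO the higher genes included the T-box factor Tbx3, the Notch-related Dlk1, the Wnt deacylase Notum, the bone matrix gene Ibsp and the zinc finger factor Gata2, and the lower genes included Runx1, Wnt6, Gadd45g, Hey1 and Cpa1. In +KTS KO the 4 higher genes were Pax8, Rmst, the cell cycle inhibitor Cdkn1a and Xylt1.

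Levels of several genes differed between cells with 0, 1 and 2 Pax8 UMIs, again as a description over cells summed from libraries with unequal shares. Over all libraries, Wnt4 was at 247 CPM in other cells with 0 Pax8 UMIs, at 586 CPM in those with 1, and at 697, 711 and 813 CPM in Pax8 cells with 2, 3 and 4 or more. Plac8 was at 30.7, 118, 188, 197 and 188 CPM in the same order, and Tcf21 at 293, 99.0, 67.4, 47.5 and 39.2 CPM. From 2 UMIs on Plac8 thus showed no trend, nor did C1qtnf12 (239, 307 and 247 CPM), Igfbp6 (66.3, 68.1 and 54.95 CPM) or Enpp2 (27.2, 34.03 and 26.98 CPM). For Wnt4, Plac8 and Tcf21, cells with a single Pax8 UMI, which the rule left out, lay between the cells with none and the Pax8 cells. Other genes did not all follow this order, since Rspo1 and Gata4 were highest in the cells with a single Pax8 UMI. Wt1 was at 253, 261, 258, 273 and 281 CPM and hardly moved. Deeper cells reach more Pax8 UMIs, and median UMIs were 12923, 13480, 13436, 14959 and 14994. Across 64962 cells thinned to 5000 UMIs, the 10 genes whose UMIs correlated most with those of Pax8 were Plac8 (Pearson r = 0.22), C1qtnf12 (0.20), Wnt4 (0.17), Egfl6 (0.16), mt-Co1 (0.15), H19 (0.14), Greb1 (0.14), Nfat5 (0.13), Igfbp5 (0.13) and Igf2 (0.13). The cells share 12 libraries, the correlations are weak and no p is given.

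**Figure D3:**
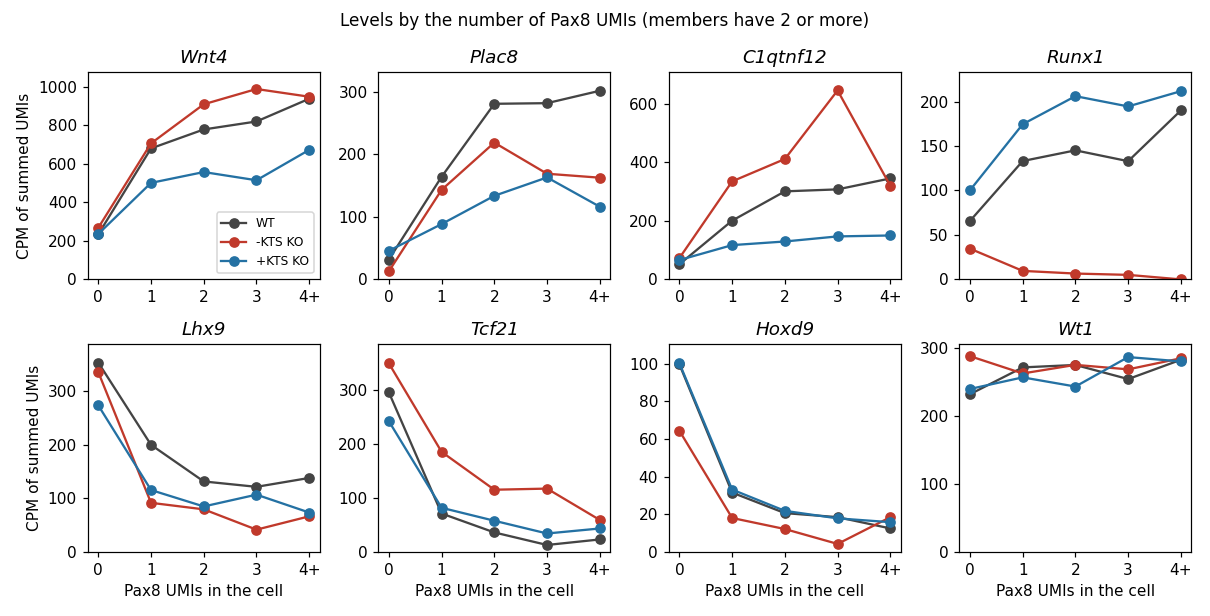
Level in CPM (y axes, from 0) of 8 genes in cells with 0, 1, 2, 3 or 4 and more Pax8 UMIs (x axes), summed over the cells of each genotype; lines join the points of a genotype. Wnt4, Plac8 and C1qtnf12 are higher and Lhx9, Tcf21 and Hoxd9 lower from 1 Pax8 UMI on, Runx1 is near 0 in -KTS KO cells with 2 or more Pax8 UMIs, and Wt1 is nearly flat.

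Many genes differed between the Pax8 cells of -KTS KO and WT gonads. A different make-up of the cells that the rule chose and a change within them cannot be told apart here. In the sums over Pax8 cells, 1464 of 12057 genes passed edgeR's quasi-likelihood test at an adjusted p under 0.05 between 4 -KTS KO and 3 WT libraries (552 higher and 912 lower), which is 12.1% of the genes tested. The count fell to 884 without XX -KTS KO replicate 1. For 992 of the 1464 the libraries of the 2 genotypes did not overlap and the level reached 20 CPM in the higher group, and over all genes tested this held for 16.7% (2018 genes). The effect was averaged over XX and XY, and within a sex the count was 1351 in XX (496 higher and 855 lower) and 435 in XY (110 higher and 325 lower). A test of its difference between the sexes called 0 genes (793 at an unadjusted p under 0.05), with XY WT at 1 library. Among the other gonadal somatic cells, 4638 of 18518 genes passed in the same comparison. The paper's methods describe the replicates as independent, and p-values measure the spread between these libraries. The gene lists below are read against the 12.1%, and against a median log2 fold change of 0.03 over all genes tested. XY WT replicate 2 alone stands for XY in the WT mean. None of the alternatives for these genotype calls left it out or required at least 3 Pax8 UMIs.

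Most pre-supporting genes fell. Of the 8 genes of this list 6 passed the test, all lower, with a median log2 fold change of -2.85. Runx1, a Runt-domain factor of the early supporting lineage (chromosome 16, 92601466 to 92826149), was at 153, 144 and 181 CPM in WT and 4.204, 1.86, 10.1 and 5.04 CPM in -KTS KO Pax8 cells, without overlap. Its log2 fold change was -4.88 ± 0.28 (SE; adjusted p = 2.82e-09), and it passed in 16 of 16 alternatives. The Wnt ligand Wnt6 (chromosome 1, 74771892 to 74785322) was at 354, 359 and 522 CPM in WT and 7.01, 5.58, 18.3 and 0 CPM in -KTS KO, a change of -5.70 ± 0.55 (SE; adjusted p = 0.000316). Over the alternatives its log2 fold change ranged from -10.4 to -5.17. Runx1 and Wnt6 were low in -KTS KO Pax8 cells, while Wnt4, which did not pass, was at 923, 837 and 534 CPM in WT and 954, 861, 911 and 955 CPM in -KTS KO (0.48 ± 0.19 SE, adjusted p = 0.109). Rspo1, which strengthens Wnt signals, likewise did not pass (0.18 ± 0.28 SE, adjusted p = 0.737).

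Nr0b1, a nuclear receptor of the adrenal and gonad, fell from 199, 123 and 160.4 to 17.3, 31.6, 49.4 and 63.5 CPM (-2.13 ± 0.38 SE, adjusted p = 0.00406). Gadd45g, a stress-response gene needed for testis determination, was at 1074, 524 and 1123 CPM in WT and 60.3, 72.5, 152 and 25.2 CPM in -KTS KO. Its log2 fold change was -3.58 ± 0.70 (SE; adjusted p = 0.0286), and the call was lost in 6 of 16 alternatives (with a replicate block and without XX WT replicate 1, XX -KTS KO replicate 1 or 2 or XX +KTS KO replicate 1 or 2), where adjusted p reached 0.101. Sprr2d, a small proline-rich protein gene, had 985 UMIs in WT Pax8 cells and 0 in -KTS KO, so it was at least 312-fold lower against a floor of 3 UMIs over the group (adjusted p = 0.0328), and the call was lost in 6 of 16 alternatives (with no filter on low counts and without XX -KTS KO replicate 1, XY -KTS KO replicate 1 or 2 or XY +KTS KO replicate 1 or 2), where adjusted p reached 0.115. Kitl, the ligand of the receptor Kit, changed by -1.64 ± 0.41 (SE; adjusted p = 0.0333), and the call was lost in 7 of 16 alternatives (with scored doublets removed and without XX WT replicate 1 or 2, XY -KTS KO replicate 1 or 2 or XY +KTS KO replicate 1 or 2), where adjusted p reached 0.095.

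Some of the gonadal somatic factors fell, by smaller amounts. Of 8 genes, 4 passed and these were lower, and the median over the 8 was -0.89. The homeobox factor Emx2 fell from 267, 251 and 198 CPM to 83.6, 112, 84.1 and 68.5 CPM (-1.35 ± 0.20 SE, adjusted p = 0.000111), and the GATA factor Gata6 from 145, 162 and 233 to 82.7, 65.1, 81.4 and 98.8 CPM (-1.15 ± 0.19 SE, adjusted p = 0.000458), both without overlap and in 16 of 16 alternatives. The nuclear receptor Nr5a1 changed by -1.89 ± 0.47 (SE; adjusted p = 0.0217), and the call was lost in 3 of 16 alternatives (without XX WT replicate 2, XX -KTS KO replicate 1 or XY -KTS KO replicate 1), where adjusted p reached 0.0643. Gata4 was at 111, 88.3 and 111 CPM in WT and 31.3, 74.4, 62.2 and 40.3 CPM in -KTS KO (-1.03 ± 0.28 SE, adjusted p = 0.0227), and the call was lost in 4 of 16 alternatives (with the small library kept and without XX WT replicate 1, XX -KTS KO replicate 1 or XY -KTS KO replicate 2), where adjusted p reached 0.13. Wt1 (-0.12, adjusted p = 0.728) and Lhx9 (-0.76, adjusted p = 0.0628) did not pass.

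Some markers of the differentiated supporting cells fell, and most of those tested did not pass. Of 7 Sertoli genes tested outside the rule, Aard and Cst9 passed and both were lower (median -2.28), and of 5 pre-granulosa genes outside the rule, Fst and Cst12 passed and both were lower (median -5.05). Fst, which encodes the activin inhibitor follistatin, was at 682, 556 and 84.6 CPM in WT and 6.07, 3.72, 8.23 and 6.05 CPM in -KTS KO. Its change was -5.11 ± 0.87 (SE; adjusted p = 0.0152), and the call was lost in 3 of 16 alternatives (without XX -KTS KO replicate 1 or XY -KTS KO replicate 1 or 2), where adjusted p reached 0.0618. For Cst9 the call was lost in 1 of 16 alternatives (without XX -KTS KO replicate 1), where adjusted p reached 0.0518, and for Cst12 the call was lost in 7 of 16 alternatives (with scored doublets removed, without the cells in other gates and without XX WT replicate 1 or 2, XX -KTS KO replicate 1 or XY -KTS KO replicate 1 or 2), where adjusted p reached 0.137. Aard changed from 73.7, 58.2 and 52.5 to 4.204, 5.58, 19.2 and 39.3 CPM (-2.28 ± 0.32 SE, adjusted p = 8.61e-05). Cyp11a1, the first enzyme of steroid synthesis, had 196 UMIs in WT and 1 in -KTS KO Pax8 cells, a ratio of 186-fold (exact counting interval 33.1 to 7397). It passed (adjusted p = 0.00245) and was the 1 gene of 4 tested in the Leydig list to do so.

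Part of the interstitial genes rose. Of 8 interstitial progenitor genes 3 passed, all higher, with a median of 2.05. Nr2f2, an orphan nuclear receptor of interstitial cells, rose from 64.2, 100.1 and 52.5 to 279, 158, 189 and 268 CPM (1.82 ± 0.30 SE, adjusted p = 0.000656), and its relative Nr2f1 from 28.7, 46.6 and 20.4 to 117, 112, 89.6 and 185 CPM (2.20 ± 0.50 SE, adjusted p = 0.0213). For Nr2f1 the call was lost in 1 of 16 alternatives (without XX -KTS KO replicate 1), where adjusted p reached 0.0591. The growth factor receptor Pdgfra was at 10.5, 17.4 and 8.75 CPM in WT and 39.2, 59.5, 30.2 and 41.3 CPM in -KTS KO (1.89 ± 0.51 SE, adjusted p = 0.0274), and the call was lost in 3 of 16 alternatives (without XX WT replicate 1, XX -KTS KO replicate 2 or XY -KTS KO replicate 2), where adjusted p reached 0.0798. Of 4 kidney and intermediate mesoderm factors tested, Osr1 and Gata3 passed and both were higher. Osr1, a zinc finger factor of the intermediate mesoderm, was at 0, 2.76 and 0 CPM in WT, 73.8, 18.6, 51.2 and 60.5 CPM in -KTS KO and 1.48, 2.06, 9.64 and 1.68 CPM in +KTS KO. Its change between -KTS KO and WT was 7.19 ± 1.36 (SE; adjusted p = 0.00991), and WT held 10 UMIs of it. Gata3 was low throughout, at 8.87, 3.72, 10.97 and 13.1 CPM in -KTS KO, and the call was lost in 6 of 16 alternatives (with DESeq2, with a replicate block and without XX WT replicate 1, XX -KTS KO replicate 1 or XY -KTS KO replicate 1 or 2), where adjusted p reached 0.209. The other 9 factors of that list outside the rule, with the nephric Lhx1 among them, were too low to be tested.

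Signalling genes moved in a mixed way. Of 11 BMP pathway genes 6 passed, all higher (median 1.17). Id3, an inhibitor of helix-loop-helix factors and a BMP target, was at 607, 609 and 166 CPM in WT, 1375, 1510.3, 1651 and 1461 CPM in -KTS KO and 236, 179, 361 and 239 CPM in +KTS KO, and changed by 2.29 ± 0.21 (SE; adjusted p = 1.02e-06) between -KTS KO and WT. Id2 rose from 73.7, 125 and 34.99 to 376, 286, 442 and 601 CPM (2.86 ± 0.36 SE, adjusted p = 0.000161), and both passed in 16 of 16 alternatives. Nog, a BMP antagonist, had 38 UMIs in -KTS KO and 0 in WT, at least 13.3-fold higher. For Nog the call was lost in 2 of 16 alternatives (without XX WT replicate 2 or XX -KTS KO replicate 1), where adjusted p reached 0.101. Id1, Bmper and Bambi were the other 3. For Id1 the call was lost in 5 of 16 alternatives (without XX WT replicate 1 or 2, XX -KTS KO replicate 1 or XY -KTS KO replicate 1 or 2), where adjusted p reached 0.102. For Bmper the call was lost in 1 of 16 alternatives (without XX -KTS KO replicate 1), where adjusted p reached 0.159, and for Bambi the call was lost in 5 of 16 alternatives (with a replicate block and without XX WT replicate 2, XX -KTS KO replicate 1 or 2 or XY -KTS KO replicate 1), where adjusted p reached 0.0844.

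Of 18 Wnt and R-spondin genes 3 rose and 3 fell, with a median of 0.29. Sfrp1, a secreted Wnt inhibitor, was at 22.98, 36.1 and 20.4 CPM in WT and 399, 409, 272 and 371 CPM in -KTS KO (3.89 ± 0.28 SE, adjusted p = 3.36e-08). The receptor Fzd2 (1.81) and the ligand Wnt5a (3.10) were also higher, and Wnt6, the transcription factor and Wnt target Lef1 (-3.18) and the R-spondin receptor Lgr4 (-1.39) were lower. Lef1 fell from 46.9, 60.97 and 29.2 to 8.87, 9.300, 1.83 and 2.02 CPM. For Wnt5a the call was lost in 5 of 16 alternatives (without XX WT replicate 1 or 2, XX -KTS KO replicate 1 or XY -KTS KO replicate 1 or 2), where adjusted p reached 0.071. Of 11 retinoic acid genes 4 rose (Aldh1a2, Rarb and Crabp2 among them) and 1 fell (Cyp26b1, which degrades retinoic acid). Aldh1a2, which makes retinoic acid, changed by 1.89 ± 0.34 (SE; adjusted p = 0.00115), and these 5 calls held in 16 of 16 alternatives.

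The FGF feedback genes Spry1, Spry2 and Dusp6 were higher among 10 genes tested, Spry1 from 17.2, 17.7 and 2.92 to 55.6, 57.7, 48.5 and 84.7 CPM (3.14 ± 0.62 SE, adjusted p = 0.00521). For Spry2 the call was lost in 2 of 16 alternatives (with DESeq2 and without XX -KTS KO replicate 1), where adjusted p reached 0.0651, and for Dusp6 the call was lost in 8 of 16 alternatives (with DESeq2, with scored doublets removed, without the cells in other gates and without XX WT replicate 1 or 2, XX -KTS KO replicate 1 or 2 or XY -KTS KO replicate 2), where adjusted p reached 0.175. Hey1, a Notch target, was the 1 gene of 8 in the Notch list to pass, lower at -1.76, and the call was lost in 4 of 16 alternatives (without XX -KTS KO replicate 1 or 2 or XY -KTS KO replicate 1 or 2), where adjusted p reached 0.115. In the adhesion list of 12 tested genes, the cadherin Cdh2 rose (2.32 ± 0.37 SE, adjusted p = 0.000392) and the basement membrane collagens Col4a1 (-1.59) and Col4a2 (-1.91) fell. The cell cycle inhibitor Cdkn1a was at 424, 135 and 157 CPM in WT and 34.1, 26.04, 32.9 and 5.04 CPM in -KTS KO, and the call was lost in 7 of 16 alternatives (with no filter on low counts and without XX -KTS KO replicate 1 or 2, XX +KTS KO replicate 1 or 2 or XY +KTS KO replicate 1 or 2), where adjusted p reached 0.0944. No gene passed in the lists of mitosis and S phase (0 of 14), immediate early genes (0 of 11) or coelomic epithelium (0 of 4). Within XX alone Ccnb2, Pcna and Tyms of the mitosis list (3 of 14, 21.4%, against 11.2% of all genes) and Krt19 of the coelomic list passed, all higher in -KTS KO, and within XY no gene of these lists passed.

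Markers of other cell types were present in the sums, the erythroid ones at high levels in some libraries. None of 7 endothelial and 8 erythroid genes tested passed, germ and immune genes were too low to be tested, and of 4 perivascular genes Rgs5 was higher (5.87 ± 0.96 SE, adjusted p = 0.000405). The summed level of the endothelial list was 30.6 to 57.9 CPM in WT, 46.5 to 174.6 CPM in -KTS KO and 28.1 to 168.3 CPM in +KTS KO. That of the erythroid list was 410 to 4360 CPM in WT, 86.7 to 240 CPM in -KTS KO and 133 to 3434 CPM in +KTS KO. The 2 highest erythroid levels, in XX WT replicate 2 and XX +KTS KO replicate 1, stood against 856 and 349.5 CPM in the other cells of these libraries. The part of such transcripts in the gene results was not tested. Without the cells in the endothelial, immune and globin gates 1561 genes passed between -KTS KO and WT, and 1436 of them were among the 1464 (98.1% of the 1464 and 92.0% of the 1561).

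Over all genes, the largest falls were Sprr2d, Tgm3, Rhox8, Aldh3b1, Stum, Cyp11a1, Acat3 and Myh11. Tgm3, a transglutaminase, had 314 UMIs in WT and 0 in -KTS KO Pax8 cells (at least 99.5-fold lower), and the X-linked homeobox gene Rhox8 202 and 0 (at least 64.01-fold lower). Stum (117 and 0 UMIs), Acat3 (71 and 0) and the smooth muscle myosin Myh11 (87 and 0) were at least 37.1-fold, at least 22.5-fold and at least 27.6-fold lower. For Rhox8 the call was lost in 2 of 16 alternatives (without XY +KTS KO replicate 1 or 2), where adjusted p reached 0.0819, and for Myh11 the call was lost in 3 of 16 alternatives (without XX -KTS KO replicate 1 or XY -KTS KO replicate 1 or 2), where adjusted p reached 0.0835. Aldh3b1, an aldehyde dehydrogenase, had 271 UMIs in WT and 1 in -KTS KO, a ratio of 258-fold (exact counting interval 45.9 to 10213). The largest rises were Ibsp, Crct1, Gata2, Osr1, Capn6, Unc13c, Nrk and Il33. The sizes of the last 2, both at 0 CPM in the XY WT library, moved with the alternatives. Their log2 fold changes ranged from 3.41 to 7.11 for Nrk and from 4.16 to 6.96 for Il33. Ibsp, which encodes bone sialoprotein, was at 33.6, 55.8, 61.3 and 70.5 CPM in -KTS KO with 2 UMIs in WT, a ratio of 126-fold (exact counting interval 34.4 to 1044). Nrk, a kinase gene on the X chromosome, rose from 4.79, 8.55 and 0 to 73.3, 53.9, 69.5 and 90.7 CPM (6.70 ± 0.69 SE, adjusted p = 2.60e-06), and the cytokine Il33 from 1.92, 2.21 and 0 to 53.7, 18.6, 41.1 and 31.2 CPM (6.66 ± 0.90 SE, adjusted p = 6.04e-05). Dlk1, a Notch-related membrane protein of progenitor cells (chromosome 12, 109452823 to 109463336), was at 366, 637 and 96.2 CPM in WT, 2012, 2358, 2146 and 3226 CPM in -KTS KO and 584, 759, 471 and 554 CPM in +KTS KO, and changed by 3.51 ± 0.28 (SE; adjusted p = 1.96e-07).

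**Figure D4:**
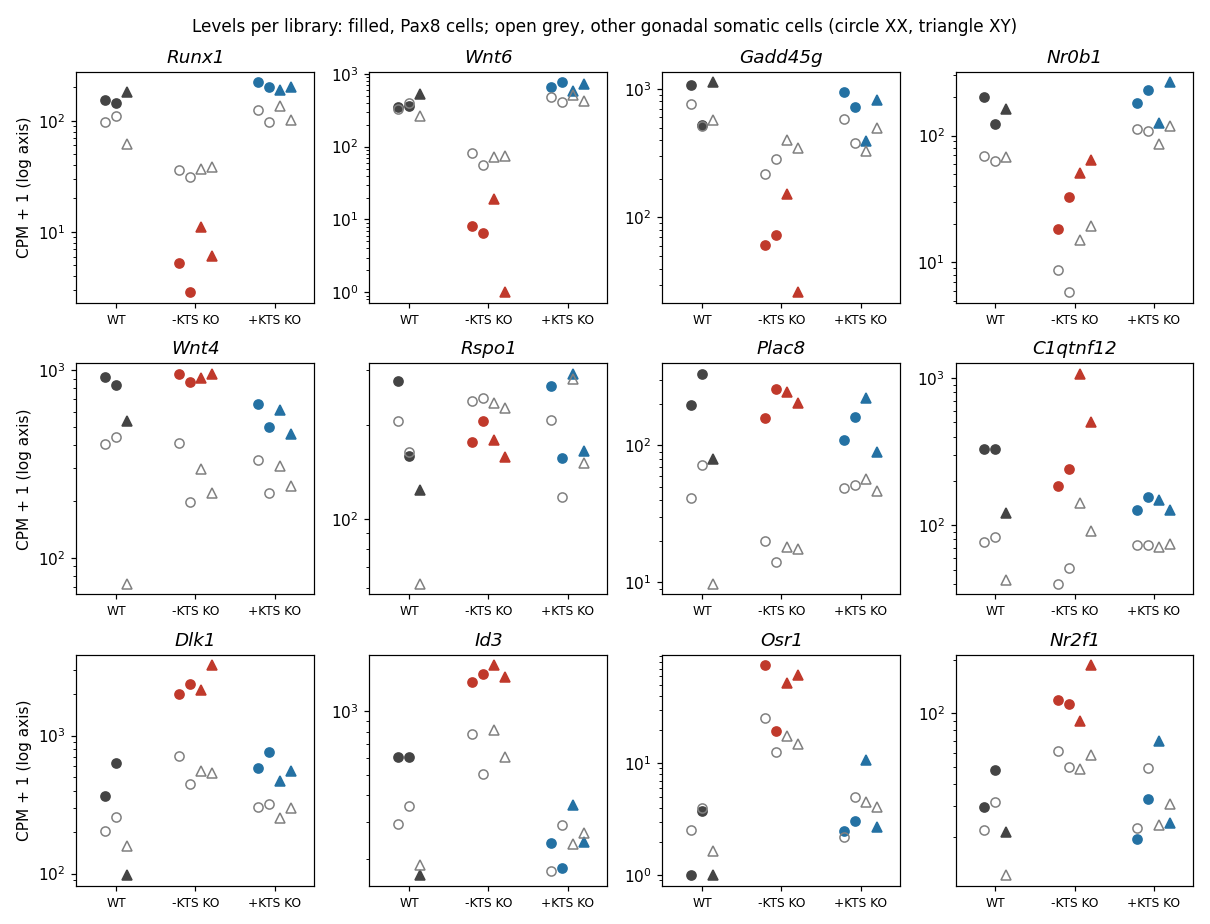
Level per library in CPM + 1 (y axes, log scale) of 12 genes in Pax8 cells (filled) and in other gonadal somatic cells (open grey), by genotype (x axes); circles are XX and triangles XY. In -KTS KO the Pax8 cells lie below the other cells for Runx1, Wnt6 and Gadd45g and above them for Nr0b1 and Wnt4, and Dlk1, Id3 and Nr2f1 are highest in -KTS KO Pax8 cells.

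The -KTS KO effect differed between the Pax8 cells and the other gonadal somatic cells for part of the genes. Unlike the Pax8 cells, the other cells had no limit on Sox9 or Foxl2, and the part of this in the differences was not tested. Sertoli genes outside the rule, 9 in all, reached 55.1, 55.1 and 1255 CPM together in the other cells of WT. In those of -KTS KO they reached 19.2 to 29.8 CPM. A fit over both sums of each library, with the library as a block, called 777 of 16536 genes (349 with a higher and 428 with a lower effect in the Pax8 cells), 4.7% of those tested. The count fell to 382 without XX -KTS KO replicate 1, 509 without XX -KTS KO replicate 2 and 428 without XX WT replicate 1. Of 8 pre-supporting genes, 4 had a lower effect in the Pax8 cells, against a median difference of -0.0015 over all genes. For Runx1 the log2 fold changes were -4.88 in Pax8 cells and -1.15 in the other cells, where it went from 96.9, 109.6 and 60.3 to 34.9, 30.4, 35.9 and 37.01 CPM, and the fitted difference was -3.42 ± 0.46 (SE; adjusted p = 0.0048). Wnt6 (-3.46 ± 0.62 SE, adjusted p = 0.0223), Gadd45g (-2.46 ± 0.46 SE, adjusted p = 0.0279) and Rspo1 (-0.65 ± 0.17 SE, adjusted p = 0.0413) were the other 3. Rspo1 had fold changes of 0.18 in the Pax8 cells and 1.19 in the other cells and so did not fall. Each of the 4 lost its call without XX -KTS KO replicate 1, and Wnt6, Gadd45g and Rspo1 under 5, 8 and 8 of 18 alternatives (adjusted p up to 0.141, 0.169 and 0.356). Sprr2d, without a UMI in -KTS KO Pax8 cells (adjusted p = 0.358), Nr0b1 (0.54, adjusted p = 0.514), Wnt4 (0.17, adjusted p = 0.933) and Kitl (-0.66, adjusted p = 0.521) did not pass.

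Other lists held calls in both directions. Nr2f2 (1.03 ± 0.15 SE, adjusted p = 4.43e-05) and Pdgfra (1.43 ± 0.24 SE, adjusted p = 0.00017) had a higher effect in the Pax8 cells and held in 18 of 18 alternatives. In the Wnt list, Sfrp1 (1.66 ± 0.29 SE, adjusted p = 0.0111), Sp5 (1.86) and Wnt5a (1.07) had the higher and Lef1 (-1.60), Lgr4 (-1.13), Wnt6 and Rspo1 the lower effect, 7 of 19 genes tested. Sfrp1 stood at 205, 161, 176 and 167 CPM in the other cells of -KTS KO, and the call was lost in 3 of 18 alternatives (without XX WT replicate 1 or 2 or XY WT replicate 2), where adjusted p reached 0.0793. For Wnt5a the call was lost in 6 of 18 alternatives (with at least 3 Pax8 UMIs, with scored doublets removed and without XX WT replicate 1 or 2 or XX -KTS KO replicate 1 or 2), where adjusted p reached 0.598. Of 11 immediate early genes, 4 (Fos, Junb, Btg2 and Nr4a1) had a lower effect. Fos was at 90.01, 146 and 75.8 CPM in WT and 69.1, 48.4, 55.8 and 55.4 CPM in -KTS KO Pax8 cells, while in the other cells it was at 54.95, 88.1 and 47.1 and 101, 94.6, 102 and 105 CPM, a difference of -1.40 ± 0.15 (SE; adjusted p = 9.39e-08). Pcna (0.92) and Mcm3 (0.62) of the mitosis and S phase list and the cyclin Ccnd1 (1.79) had a higher effect. Fos, Sp5, Lef1, Pcna and Ccnd1 lost their calls in 1 of 18 alternatives, that with at least 3 Pax8 UMIs required, with adjusted p = 0.176, 1.0, 0.0853, 0.540 and 0.0932. Their log2 differences there were -0.64 for Fos, 0.29 for Sp5, -1.55 for Lef1, 0.58 for Pcna and 1.52 for Ccnd1, so that those of Fos, Sp5 and Pcna shrank by more than 1.5 times. The alternative with at least 3 Pax8 UMIs also left out XY WT replicate 2 and XX -KTS KO replicate 2, which held under 20 such cells. The higher limit and the loss of these libraries cannot be told apart in it. For Mcm3 the call was lost in 10 of 18 alternatives (with DESeq2, with at least 3 Pax8 UMIs and without XX WT replicate 1 or 2, XX -KTS KO replicate 1 or 2, XY -KTS KO replicate 1 or 2, XX +KTS KO replicate 1 or XY +KTS KO replicate 2), where adjusted p reached 0.211. For Junb the call was lost in 4 of 18 alternatives (with at least 3 Pax8 UMIs, with scored doublets removed and without XX WT replicate 1 or 2), where adjusted p reached 0.953. Its log2 difference shrank from -1.29 to -0.38 with at least 3 Pax8 UMIs. For Btg2 the call was lost in 2 of 18 alternatives (with at least 3 Pax8 UMIs and with scored doublets removed), where adjusted p reached 0.469. For Nr4a1 the call was lost in 7 of 18 alternatives (with DESeq2, with at least 3 Pax8 UMIs and without XX WT replicate 1 or 2, XX -KTS KO replicate 1 or 2 or XY -KTS KO replicate 2), where adjusted p reached 0.318. In the remaining lists Fgf9, Bmper, Crabp2, Dusp6 and Cdh6 had a higher effect in the Pax8 cells and Emx2, Maf, Epcam, Dhrs3, Hey1 and Krt8 a lower one. Bmper, a BMP-binding protein, held in 18 of 18 alternatives. Crabp2, Dusp6, Epcam and Hey1 lost their calls in 1, with at least 3 Pax8 UMIs (adjusted p = 0.0986, 0.0918, 0.103 and 0.230). For Cdh6 the call was lost in 2 of 18 alternatives (with at least 3 Pax8 UMIs and without XX -KTS KO replicate 1), where adjusted p reached 0.301. For Dhrs3 the call was lost in 2 of 18 alternatives (with at least 3 Pax8 UMIs and without XX WT replicate 1), where adjusted p reached 0.755. Its log2 difference shrank from -0.81 to -0.49 with at least 3 Pax8 UMIs. For Krt8 the call was lost in 2 of 18 alternatives (with scored doublets removed and without XX -KTS KO replicate 1), where adjusted p reached 0.123. For Emx2 the call was lost in 5 of 18 alternatives (without XX WT replicate 1, XX -KTS KO replicate 1 or 2, XY -KTS KO replicate 1 or XX +KTS KO replicate 1), where adjusted p reached 0.115. For Fgf9 the call was lost in 5 of 18 alternatives (with at least 3 Pax8 UMIs and without XY WT replicate 2, XX -KTS KO replicate 2 or XY -KTS KO replicate 1 or 2), where adjusted p reached 0.994, with log2 differences of 0.68 to 4.81. For Maf the call was lost in 5 of 18 alternatives (with DESeq2, with at least 3 Pax8 UMIs and without XX WT replicate 1 or XX -KTS KO replicate 1 or 2), where adjusted p reached 1, with log2 differences of -0.71 to -0.12.

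The largest differences beyond the lists were negative for Platr26, 2210407C18Rik, Cpa1, Aldh3b1 and Pnliprp1 and positive for Dach1, Sdk2, Unc13c, Nrk and Shisa2. Cpa1, a carboxypeptidase, was at 472, 177 and 933 CPM in WT and 39.7, 1.86, 295 and 5.04 CPM in -KTS KO Pax8 cells, with XY -KTS KO replicate 1 within the WT range, and in the other cells it was at 229, 181 and 254 CPM in WT and 486, 345, 827 and 646 CPM in -KTS KO. The difference was -4.31 ± 0.85 (SE; adjusted p = 0.0328), and the call was lost in 9 of 18 alternatives (with at least 3 Pax8 UMIs and without XX WT replicate 1 or 2, XY WT replicate 2, XX -KTS KO replicate 1 or 2, XX +KTS KO replicate 1 or 2 or XY +KTS KO replicate 2), where adjusted p reached 0.5. For Aldh3b1 the call was lost in 8 of 18 alternatives (with at least 3 Pax8 UMIs, with the small library kept and without XX WT replicate 1, XX -KTS KO replicate 1 or 2, XY -KTS KO replicate 1 or 2 or XY +KTS KO replicate 2), where adjusted p reached 0.405. For Unc13c the call was lost in 8 of 18 alternatives (with DESeq2, with at least 3 Pax8 UMIs, with scored doublets removed and without XX WT replicate 1 or 2, XX -KTS KO replicate 1 or 2 or XY -KTS KO replicate 2), where adjusted p reached 0.873. Platr26 lost its call with at least 3 Pax8 UMIs (adjusted p = 0.0937). Pnliprp1, a pancreatic lipase relative, differed by -4.15 ± 0.51 (SE; adjusted p = 4.97e-06) and held in 18 of 18 alternatives. Dach1, a nuclear corepressor, was at 19.6, 40.9, 17.4 and 14.1 CPM in -KTS KO Pax8 cells against 4.42, 2.54, 2.21 and 3.28 CPM in the other cells (2.93 ± 0.61 SE, adjusted p = 0.00756). Shisa2 was lower in the other cells of -KTS KO (32.9, 30.5 and 45.9 CPM in WT and 6.905, 4.49, 5.96 and 7.89 CPM in -KTS KO) and changed little in the Pax8 cells (23.9, 20.1 and 32.1 and 19.2, 11.2, 17.4 and 24.2 CPM), a difference of 2.13 ± 0.24 (SE; adjusted p = 2.00e-07).

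**Figure D5:**
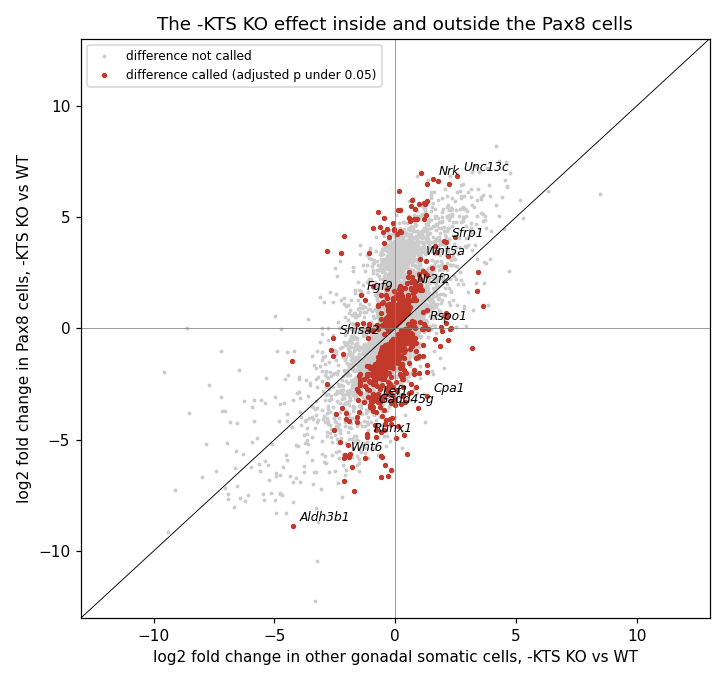
Fitted log2 fold change of each gene between -KTS KO and WT in other gonadal somatic cells (x axis) and in Pax8 cells (y axis); red points are genes whose difference passed the test of the difference, and the diagonal marks equal effects. Runx1, Wnt6, Gadd45g and Cpa1 lie below the diagonal and Sfrp1, Nrk and Unc13c above it.

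Fewer genes were called between +KTS KO and WT Pax8 cells. Between 4 +KTS KO and 3 WT libraries 162 of 12057 genes passed, 1.34% of those tested (73 higher and 89 lower). Within XX the count was 305 (132 higher and 173 lower), and within XY, with 1 WT library, 18 (1 higher and 17 lower). DESeq2 called 144 genes with another split, 41 higher and 103 lower, and without XY +KTS KO replicate 1 or 2 the count was 307 or 324. For 134 of the 162 the libraries did not overlap and the level reached 20 CPM in the higher group, which held for 8.04% of all genes tested (969 genes). None of 8 pre-supporting, 8 gonadal somatic or 5 pre-granulosa genes passed, with medians of 0.0017, -0.12 and 0.060 against 0.058 over all genes. Runx1 was at 221, 199, 187 and 199 CPM in +KTS KO (0.31 ± 0.20 SE, adjusted p = 0.626), and Wnt6 at 662, 761, 583 and 731 CPM (0.68 ± 0.42 SE, adjusted p = 0.631). Amh, the anti-Müllerian hormone of Sertoli cells, had 209 UMIs in +KTS KO and 3 in WT Pax8 cells, a ratio of 34.4-fold (exact counting interval 11.6 to 168), at 23.1, 18.6, 22.8 and 17.2 CPM (adjusted p = 0.00419). It passed in 16 of 16 alternatives. Dhh, a hedgehog ligand of Sertoli cells, was higher too (5.33, 16.5, 5.58 and 12.2 CPM with 1 UMI in WT, adjusted p = 0.0392), and the call was lost in 7 of 16 alternatives (with DESeq2 and without XX WT replicate 1 or 2, XX -KTS KO replicate 1 or 2, XX +KTS KO replicate 2 or XY +KTS KO replicate 2), where adjusted p reached 0.161. In the other cells Amh was at 0.312, 0.419 and 72.4 CPM in WT and 18.9, 7.402, 28.8 and 11.1 CPM in +KTS KO. In XY WT replicate 2 the Sox9 limit had removed 57 of 91 cells with 2 Pax8 UMIs. The low Amh level of the XY WT Pax8 cells cannot be told apart from this removal. The +KTS KO effect in Pax8 cells was not called different from that in the other cells for Amh (adjusted p = 0.843) or Dhh (adjusted p = 0.849).

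In the adhesion list 4 of 12 genes rose. The collagen Col4a1 went from 30.6, 60.7 and 67.1 to 153, 152, 204 and 126 CPM (1.48 ± 0.27 SE, adjusted p = 0.00585), and Col4a2 (1.03), the laminin Lama1 (2.44) and the keratin Krt19 (3.59) were also higher. Lama1 lost its call with DESeq2 (adjusted p = 0.211) and Krt19 with scored doublets removed (adjusted p = 0.146). For Col4a2 the call was lost in 4 of 16 alternatives (with DESeq2, without the cells in other gates and without XX WT replicate 1 or XX +KTS KO replicate 2), where adjusted p reached 0.131. Col4a1 and Col4a2 thus moved in opposite directions in the 2 mutants, lower in -KTS KO and higher in +KTS KO against the same 3 WT libraries. Sfrp1 rose (1.56 ± 0.28 SE, adjusted p = 0.00494) and Bambi, a BMP pseudoreceptor, fell from 290.1, 261 and 204 to 101, 118, 151 and 101 CPM (-1.02 ± 0.19 SE, adjusted p = 0.00595). No gene passed in the lists of interstitial, retinoic acid, Notch, FGF, mitosis, cell cycle inhibitor or immediate early genes.

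The 8 largest falls included Rarres1, Platr26, Acat3, 1810065E05Rik, Cacna1d, Tescl and Tulp2. Platr26 lost its call without XX WT replicate 2 (adjusted p = 0.0697). Tulp2 fell from 52.7, 57.4 and 128 to 15.7, 5.77, 15.7 and 4.61 CPM (-3.00 ± 0.34 SE, adjusted p = 0.000914) and held in 16 of 16 alternatives. Rarres1 had 59 UMIs in WT and 2 in +KTS KO, a ratio of 59.8-fold (exact counting interval 15.8 to 505). The 8 largest rises were Tmprss6, Fhl2, Pkdcc, Ass1, Heca, Amh, Mgam and Krt19. Over the alternatives the log2 fold change of Tmprss6, at 0 CPM in the XY WT library, ranged from 3.34 to 6.14. Tmprss6, a membrane protease, was at 1.92, 1.66 and 0 CPM in WT and 18.96, 32.6, 10.1 and 21.8 CPM in +KTS KO (5.87 ± 1.03 SE, adjusted p = 0.00646), and the call was lost in 1 of 16 alternatives (without XX WT replicate 2), where adjusted p reached 0.0566. Mgam, a glucosidase, rose from 1.92, 3.31 and 2.92 to 29.04, 64.8, 19.8 and 39.00 CPM (3.65 ± 0.64 SE, adjusted p = 0.00859) and held in 16 of 16. Fhl2, Pkdcc, Ass1 and Heca had 0 UMIs in the XY WT library and did not pass with DESeq2. Fhl2 also lost its call without XX WT replicate 2, Ass1 without XX +KTS KO replicate 2 and Heca with the small library kept, and over these alternatives adjusted p reached 0.143 for Fhl2, 0.123 for Pkdcc, 0.225 for Ass1 and 0.219 for Heca. Dlk1 was higher as well (1.42 ± 0.26 SE, adjusted p = 0.00561), although its levels in the +KTS KO and WT libraries overlapped and the lone XY WT library was the lowest.

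Few +KTS KO effects passed the test of the difference between Pax8 cells and other cells. It called 11 of 16536 genes (0.0665%; 978 at an unadjusted p under 0.05), 5 with the Pax8 cells higher and 6 lower. DESeq2 called 5, and leave-outs gave 0 (XX WT replicate 1), 6 (XX +KTS KO replicate 2), 61 (XY WT replicate 2) and 92 (XY +KTS KO replicate 1). Rarres2, the chemerin gene, stood at 71.8, 61.2 and 34.99 CPM in WT and 40.3, 29.7, 67.99 and 46.97 CPM in +KTS KO Pax8 cells against 32.8, 37.2 and 18.00 and 45.9, 42.7, 59.03 and 51.4 CPM in the other cells, a difference of -1.15 ± 0.20 (SE; adjusted p = 0.0131). For Rarres2 the call was lost in 2 of 18 alternatives (with DESeq2 and without XX WT replicate 1), where adjusted p reached 0.0898. Il6st, the signal-transducing receptor of interleukin 6 cytokines, was at 92.9, 104 and 58.3 CPM in WT and 21.04, 16.9, 58.9 and 13.8 CPM in +KTS KO Pax8 cells (-0.99 ± 0.21 SE, adjusted p = 0.0403). The XY +KTS KO replicate 1 library was the highest of the 4, and the call was lost in 4 of 18 alternatives (with DESeq2, with at least 3 Pax8 UMIs and without XX WT replicate 1 or XX +KTS KO replicate 2), where adjusted p reached 0.229. Rnase4, Cacna2d1 and Klhl5 also had lower, and Wfdc1, Olfm1, Mtss2 and Rnf181 higher effects, and each of these 7 lost its call without XX WT replicate 1, where 0 genes passed. No gene of the 23 lists was among the 11 genes.

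Between the sexes in WT, 10 of 11607 autosomal genes passed, 0.0862% of those tested (8 higher in XY and 2 lower, 788 at an unadjusted p under 0.05). The comparison sets 1 XY library of 27 cells against 2 XX libraries of 80 and 217 cells, and the lone XY library was assumed to vary like the other groups. Dlk1 was at 96.2 CPM in XY against 366 and 637 CPM in XX (-2.39 ± 0.44 SE, adjusted p = 0.0389), and Id3 at 166 against 607 and 609 CPM (-1.88 ± 0.34 SE, adjusted p = 0.0389). Higher in XY were Pnmt, Smoc2, Platr26, Prss43, Ctrl, Lipg, Me2 and Lpl. Lpl, lipoprotein lipase, was at 187 CPM in XY against 45.0 and 50.8 CPM in XX (1.94 ± 0.33 SE, adjusted p = 0.0323), and Me2, a mitochondrial malic enzyme, at 215.8 against 46.9 and 55.2 CPM (2.05 ± 0.35 SE, adjusted p = 0.0323). Every one of the 10 calls was lost without XX WT replicate 1, where 0 genes passed, and without XX WT replicate 2, where 1 other gene passed, and also without either XX -KTS KO library, where 0 passed. Without XY +KTS KO replicate 1 or 2 the count was 31 or 26. Runx1 (181 CPM in XY against 153 and 144 CPM in XX), Wnt6 and Gadd45g did not pass (adjusted p = 0.921, 0.924 and 0.959). In this XY library 57 of 91 cells with 2 Pax8 UMIs had exceeded the Sox9 limit.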

How the data were processed

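The authors aligned droplet libraries of E12 gonads with Cell Ranger 6.0 to mm10 and deposited raw UMI counts per gene and cell, 1 matrix per library (the kit is version 2 in the labels and version 3 in the methods). The deposited counts were not normalised, and 32235 of 32285 gene IDs matched the GRCm38 annotation that gives positions here. The members, gene lists and tests were chosen with earlier results of these data known. Doublets were scored in each library and kept, with their removal as an alternative. UMIs were summed per library over Pax8 cells and over other gonadal somatic cells, and libraries under 20 Pax8 cells were left out. Other cells had under 5 UMIs over endothelial and over immune genes, and under 5% globin UMIs, with no limit on Sox9 or Foxl2. The sums were tested with edgeR 4.0.16 (R 4.3.3; quasi-likelihood test, TMM, filterByExpr, Benjamini-Hochberg over all genes, threshold 0.05) in a fit of 6 groups of sex and genotype, averaged over the sexes. Differences of effect between Pax8 cells and other cells came from a fit with the library as a block. Alternatives were DESeq2 1.42.0, no filter on low counts, doublets or non-gonadal gates removed, small libraries kept, and each library left out. A replicate block was added for the fits of genotype and sex only. For the differences of effect only, at least 3 Pax8 UMIs were required, or the other cells were limited to those with 0 Pax8 UMIs. On simulated data with 200 changed genes the test recovered 17.6% of 2-fold and 65.2% of 4-fold changes for the -KTS KO comparison over 11489 genes, and 4.60% of its calls were unchanged genes. Shares were compared by exact permutation tests, with Clopper-Pearson 95% intervals. Named genes were the 20 highest and 10 lowest ratios over other cells, the 8 largest rises and falls per contrast at 20 CPM or more without overlap, the 5 largest differences of effect each way, and from each list the genes that passed, with up to 4 others by level. Dlk1 was named in the genotype comparisons outside this rule, after its values were seen. A few genes that this rule names are not reported here. Python 3.11.15, scanpy 1.11.5 and scipy 1.17.1 were used.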

Additional observations from a re-analysis of the deposited data

Results flagged for a closer look

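Among the named genes, 8 of 83 groups of 4 libraries had 1 library far from the other 3. Where the other 3 libraries were at 0 this outcome was fixed, so the count is not set against a chance rate. In -KTS KO Pax8 cells, Aldh3b1 was at 1.86 CPM in XX replicate 2, Cyp11a1 and Pnmt at 0.467 CPM each in XX replicate 1, and Platr26 at 1.83 CPM in XY replicate 1, in each case with the other 3 libraries at 0. In +KTS KO Pax8 cells, Stum was at 6.596 CPM and Osr1 at 9.64 CPM in XY replicate 1, Nrk at 6.19 CPM in XX replicate 2 and Rarres1 at 0.593 CPM in XX replicate 1, each the highest of the 4. These values rest on few UMIs.

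The +KTS KO effect differed between XY and XX in 3 genes by edgeR's quasi-likelihood test of the difference. The log2 difference (XY effect minus XX effect) was -5.98 for Pnmt (adjusted p = 0.0221, passed in 13 of 16 settings), -4.76 for Ctrl (adjusted p = 0.0330, 11 of 16) and -2.80 for Nppc (adjusted p = 0.0462, 7 of 16). Nppc, which encodes a natriuretic peptide, was at 51.7, 26.5 and 128 CPM in WT and 130.4, 158, 73.6 and 76.3 CPM in +KTS KO Pax8 cells. All 3 differences rest on 1 XY WT library of 27 cells.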

How the results depend on the processing

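Depth limits these results: 61.9% of the Pax8 cells held only 2 Pax8 UMIs, XY WT had 1 usable library, and in simulations most 2-fold changes were missed. Of 3254 alternatives for 194 gene results, 2922 kept direction and side of the threshold, 326 fell short of it, 6 moved and none reversed. For shares, the difference between -KTS KO and WT ranged from -0.539 to 0.566 with a library left out (0.566 without XX WT replicate 2, 0.0873 without XX -KTS KO replicate 2), that between +KTS KO and WT from 0.416 to 1.52, between -KTS KO and +KTS KO from -1.22 to -0.736, and between XY and XX from -1.27 to -0.697. The XY and XX difference (-0.972) had an exact p of 0.0370 over splits balanced within genotype. With a library left out, genes called numbered 884 to 1852 for -KTS KO, 120 to 324 for +KTS KO, 0 to 31 for sex in WT, 382 to 1148 for the -KTS KO difference of effect and 0 to 92 for that of +KTS KO. Without the filter on low counts the last 4 gave 428, 75, 1183 and 146. The +KTS KO count was 274 with the small library kept. With at least 3 Pax8 UMIs the differences of effect gave 239 (-KTS KO) and 62 (+KTS KO), in a fit that also lacked XY WT replicate 2 and XX -KTS KO replicate 2. For +KTS KO doublet removal gave 36, leaving out non-gonadal gates 25 and DESeq2 5. The causes of these shifts were not tested. Genes at least 2-fold higher in each library numbered 1 to 2 and lower ones 2 to 4 with a library left out, and 2 and 4 with a pseudocount of 1 CPM. Under the looser rule they numbered 17 to 24 and 31 to 41, and the lower ones 52 without doublets, 56 with at least 3 Pax8 UMIs and 52 with a pseudocount of 1 CPM. The fits of genotype and sex with at least 3 Pax8 UMIs or without XY WT replicate 2 were not run, since no XY WT library with 20 Pax8 cells was left.

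The replicate numbers of the libraries are shared across groups. Deviations of same-numbered libraries correlated at -0.322 to 0.235 over 10 pairs of groups, 3 over 0.1. XY WT was in none of these pairs, and a batch order that differs between groups would give negative values. Whether same-numbered libraries shared a batch cannot be told from these values. With a replicate block the calls numbered 1331 for -KTS KO, 207 for +KTS KO and 14 for sex in WT, of which 1258, 157 and 10 were shared with the fit without it.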
